A study of Mus musculus with 4 samples.

Results

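The collagen hydroxylases and the collagen chaperone are a set of 10 genes, taken by symbol from a gene table of 55401 rows: the prolyl 4-hydroxylase alpha subunits P4ha1, P4ha2 and P4ha3, the lysyl hydroxylases Plod1, Plod2 and Plod3, the prolyl 3-hydroxylases P3h1 and P3h3, the galactosyltransferase Colgalt1 and the chaperone Serpinh1. All 10 were found, 1 row each, and all 10 passed the filter on low counts. The data are poly(A) RNA sequencing libraries from mouse heart at day 28 after surgery. The MI group (n = 2) had a ligation operation that leads to myocardial infarction, and the Sham group (n = 2) had a thoracotomy without ligation. Strain, age, sex and the number of animals behind a library are not given in the labels, which name the tissue only as heart, although the design text speaks of infarcted tissue and normal left ventricle. No genotype or drug is named for either group, and the series title names cyanidin, whose treated hearts are not analysed here.

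A collagen chain is modified inside the endoplasmic reticulum before it folds with others into a triple helix. Prolyl 4-hydroxylase, built from catalytic alpha subunits and the disulfide isomerase P4hb, hydroxylates proline and thereby makes the helix stable at body temperature. Lysyl hydroxylases prepare lysines for crosslinks and for sugars, Colgalt1 adds the galactose, and Serpinh1 binds the finished helix until it leaves. These hydroxylases need oxygen, iron, 2-oxoglutarate and ascorbate, and in the infarcted heart the fibroblasts that build the scar are the main makers of fibrillar collagen.

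All 10 genes had higher levels in MI than in Sham hearts on the deposited FPKM scale, a fragment abundance per length and library size, and on that scale 39% of all genes tested were higher in each MI library than in either Sham library. The summed level of the 10 genes was 194 and 142 FPKM in the MI libraries, against 90.3 and 62.5 FPKM in the Sham libraries. Serpinh1 was the larger part of this sum in each library but Sham replicate 2, where it made up 29.0%, and the other 9 genes summed to 86.7 and 63.7 FPKM in MI against 39.2 and 44.4 FPKM in Sham. With counts scaled by trimmed means (TMM), which correct for unequal library composition, 9 of the 10 genes, all but P3h1, were higher in each MI library than in either Sham library, where 24.9% of all 18475 genes tested did so. The median log2 difference (MI minus Sham) of the 10 genes was 0.72, beside 0.00 for all genes tested.

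Gene by gene, none of the 10 was called by the quasi-likelihood test of edgeR after Benjamini-Hochberg adjustment at 0.05, as for 0% of all genes tested, whose smallest adjusted value was 0.185. At an unadjusted p under 0.05, 5 of the 10 were higher and 0 lower (P4ha1, Plod2, Plod3, P3h3 and Colgalt1), where 7.12% of all genes were higher and 4.51% lower. Those shares are 1316 and 834 genes. They became 1966 and 432 with mitochondrial transcripts removed and counts scaled to the library total in place of TMM. DESeq2 called 1 of the 10 higher, P4ha1 (adjusted p = 0.0011), where it called 2.18% of all genes higher. Without MI replicate 1 the 5 genes at an unadjusted p under 0.05 became 1, P4ha1, and without Sham replicate 1 they became 8, where the share of all genes that were higher became 2.23% and 9.67%. The labels do not say whether a replicate is its own animal, and the p-values therefore cover only the spread among these libraries, which may be technical.

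The libraries differed in what other tissue they held. MI replicate 1 carried lung epithelium transcripts (8 markers summing to 288 FPKM, at most 0.86 FPKM in the other libraries). Each of the 10 genes was highest in MI replicate 1, but the share of all genes highest there was not counted. Sham replicate 2 carried adipocyte markers (6 markers, 143 FPKM there and at most 0.43 FPKM elsewhere) and the atrial genes Myl7 and Myl4 (1128 and 186 FPKM there, at most 1.20 FPKM elsewhere). The part of these tissues in the differences was not tested. Cardiomyocyte markers, 9 in number, summed to 9405 and 10053 FPKM in MI and 10080 and 10415 FPKM in Sham. Total estimated counts were 66624106 to 75979320 per library, at an inferred rate of about 4 counts for each fragment.

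**Figure D1:**
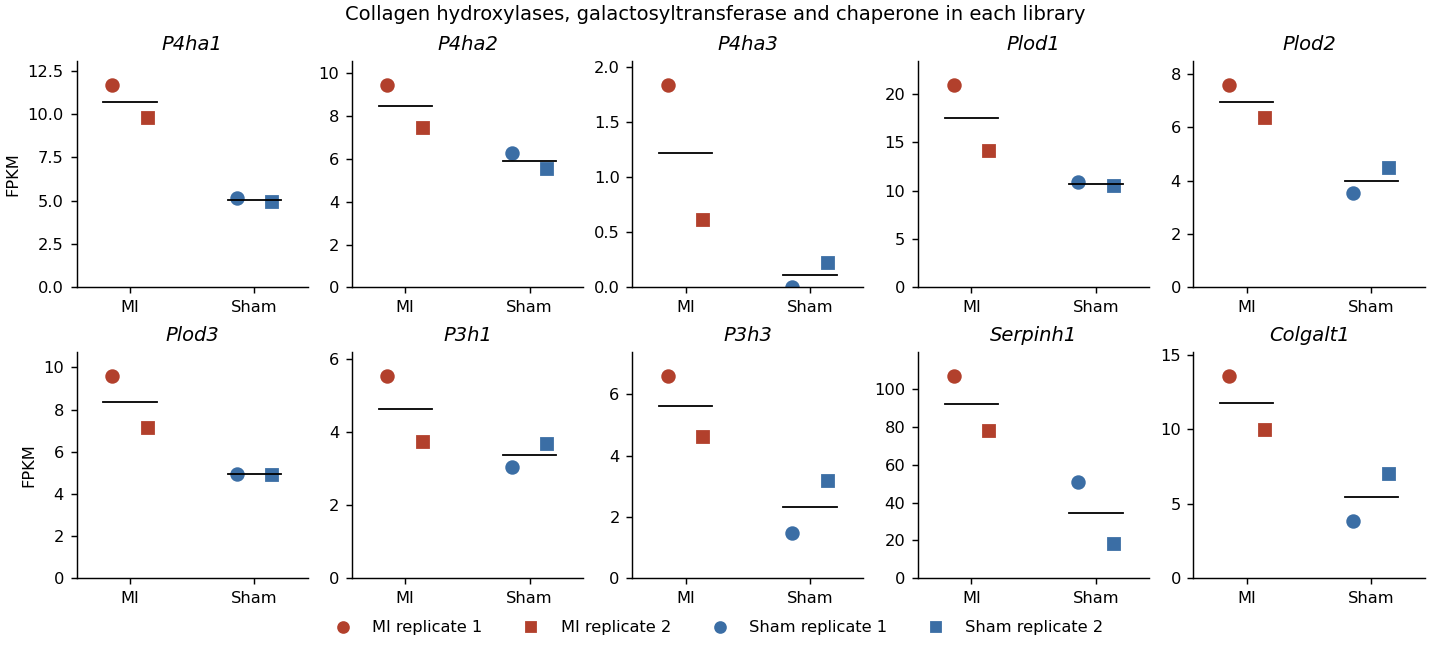
Deposited FPKM of each of the 10 genes in every library, MI left and Sham right, with the group mean as a line and each vertical axis starting at 0. On this scale the points of the groups do not overlap for any of the 10 genes, as for 39% of all genes in this direction. MI replicate 1 is the highest point in each panel, and the share of all genes highest there was not counted.

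The promoters of P4ha1 and Serpinh1 are shown because P4ha1 had the smallest p of the 10 genes and is a known target of the hypoxia factor HIF, and because Serpinh1 is the most abundant of them and a known heat shock gene. RefSeq promoter windows of GRCm38.p6, which run from 250 bases before to 50 bases after a gene's start, were held for 9 of the 10 genes, in 11 windows, and Plod2 had none among them. Capitals mark the hypoxia response cores ACGTG and GCGTG and the heat shock element GAANNTTC, searched on both strands, so that CACGT and CACGC are matches on the other strand.
P4ha1, chr10:59323046-59323345, plus strand: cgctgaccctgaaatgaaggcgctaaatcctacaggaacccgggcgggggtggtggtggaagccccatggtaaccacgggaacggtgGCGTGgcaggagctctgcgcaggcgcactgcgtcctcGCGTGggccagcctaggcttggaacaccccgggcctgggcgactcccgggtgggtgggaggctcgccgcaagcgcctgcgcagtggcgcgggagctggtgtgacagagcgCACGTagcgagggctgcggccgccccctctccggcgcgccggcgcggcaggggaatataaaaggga
Serpinh1, chr7:99353190-99353489, minus strand: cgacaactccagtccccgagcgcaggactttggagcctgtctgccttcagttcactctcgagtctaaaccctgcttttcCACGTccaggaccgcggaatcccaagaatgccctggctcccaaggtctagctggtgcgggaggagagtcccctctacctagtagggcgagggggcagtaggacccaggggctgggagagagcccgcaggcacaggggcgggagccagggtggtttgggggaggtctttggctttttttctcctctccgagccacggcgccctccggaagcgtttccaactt

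The P4ha1 window held ACGTG at 1 place and GCGTG at 2 places, and the Serpinh1 window held ACGTG at 1 place and no GAANNTTC. Over the 9 genes, 7 held ACGTG or GCGTG in at least 1 window (9 of 11 windows), whereas 43.8% of all 32851 mouse promoter windows do. P4ha3 and P3h3 held neither. GAANNTTC was present in 1 window each of Plod1 and Colgalt1, among the 11 windows, and in 7.86% of all windows. The Colgalt1 windows overlap each other, so the 11 windows are not all separate. The P4ha1 and Serpinh1 windows have a GC content of 70.3% and 62.3%, above the median of 52.7% over all windows. The motifs ACGTG and GCGTG contain CG, while GAANNTTC has no fixed CG. A match describes letters only, and nothing here measures binding.

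P4ha1 (ENSMUSG00000019916, chromosome 10, 59323296 to 59373304, GRCm38) encodes the most widely used catalytic alpha subunit. It stood at 11.7 and 9.78 FPKM in the MI libraries and at 5.16 and 4.92 FPKM in the Sham libraries. The groups lay well apart, and each pair of replicates was close together. On the TMM scale the log2 difference was 0.86 ± 0.14 (SE), a fold of 1.82 (edgeR unadjusted p = 0.0021, adjusted p = 0.24). Under the 12 alternative settings it ranged from 0.75 to 1.07 with an unadjusted p of at most 0.022, including each fit without 1 library. It was the 1 gene of the 10 with an unadjusted p under 0.05 in all 12.

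P4ha2 (chromosome 11, 54100095 to 54131662) encodes the alternative alpha subunit, found in cartilage and endothelium among other tissues. It had 9.43 and 7.46 FPKM in MI and 6.29 and 5.51 FPKM in Sham. The groups did not overlap, but they lay close, and the log2 difference of 0.28 ± 0.17 did not pass (edgeR adjusted p = 0.57). P4ha3 (chromosome 7, 100285520 to 100319699), the third alpha subunit and the rarest of the 10 transcripts, had 1.83 and 0.61 FPKM in MI against 0 and 0.22 FPKM in Sham. In estimated counts this was 459 and 159 in MI against 0 and 52 in Sham. A count of 0 allows up to 12 counts, or 3 fragments if each gives about 4 counts, covering counting error only. The MI mean of 3.78 CPM was at least 20.0-fold higher than Sham replicate 1 at that limit. This bound does not hold for Sham replicate 2, which had 0.80 CPM, beside 5.50 and 2.05 CPM in the MI libraries. The fitted log2 difference of 3.23 ± 1.58 did not pass (edgeR adjusted p = 0.50), and it was 2.24 without Sham replicate 1.

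The balance of the alpha subunits differed between the MI and Sham libraries at hand. P4ha1 made up 50.9% and 54.8% of the summed alpha subunit FPKM in the MI libraries and 45.1% and 46.2% in the Sham libraries. P4ha2 made up 41.2% and 41.8% in MI and 54.9% and 51.7% in Sham. P4ha1 was thus the more abundant alpha subunit in both MI libraries, and P4ha2 in both Sham libraries, with a P4ha1 to P4ha2 ratio of 1.24 and 1.31 in MI against 0.82 and 0.89 in Sham. An exact permutation test of this ratio gave p = 0.33 (2-sided, n = 2 each), the smallest p that 2 against 2 libraries allow. The partner P4hb, which also serves as a free disulfide isomerase, had 90.1 and 71.8 FPKM in MI and 66.9 and 66.0 FPKM in Sham, and its log2 difference of 0.06 ± 0.14 did not pass (edgeR adjusted p = 0.91). It therefore stood at 3.93 and 4.02 times the summed alpha subunits in MI and at 5.84 and 6.20 times in Sham.

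**Figure D2:**
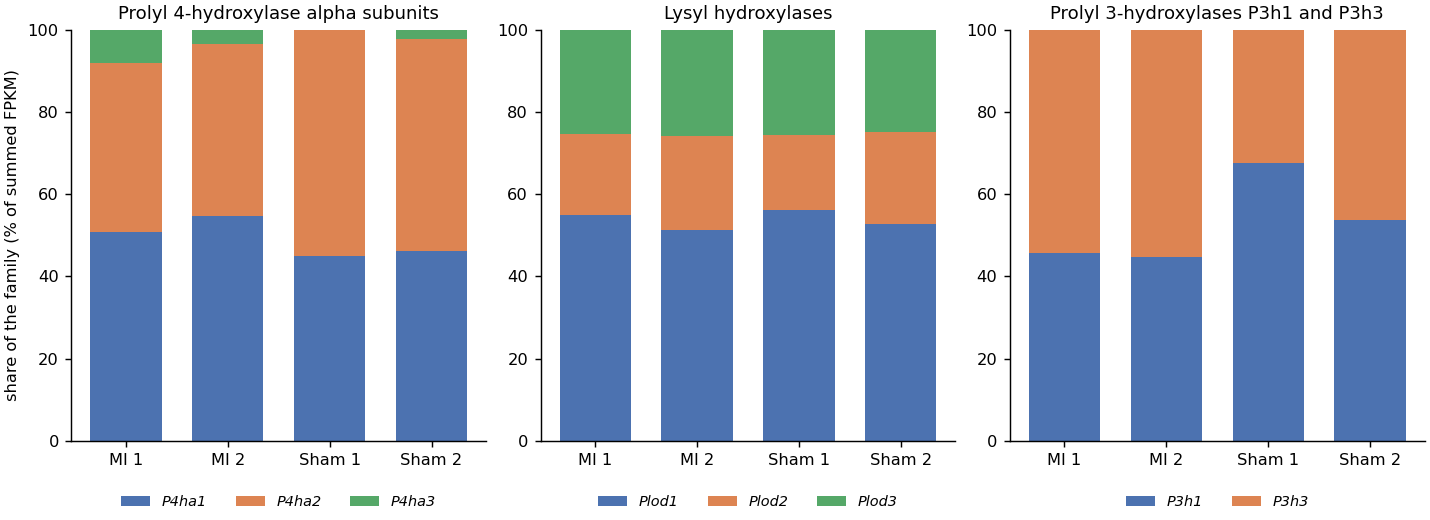
Share of each gene in the summed FPKM of its family, in percent, for the 2 MI and then the 2 Sham libraries. P4ha1 is the largest alpha subunit share in both MI libraries and P4ha2 in both Sham libraries, while the lysyl hydroxylase shares of the groups overlap.

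The lysyl hydroxylases were all higher in MI, by similar amounts. Plod1 (chromosome 4, 147909753 to 147936767), which hydroxylates lysines of the helix, had 20.9 and 14.1 FPKM in MI and 10.9 and 10.5 FPKM in Sham. The Sham libraries were close and both MI libraries above them, and the log2 difference was 0.47 ± 0.19 (edgeR unadjusted p = 0.053). Without MI replicate 1 the difference was 0.27. Plod2 (chromosome 9, 92542223 to 92608428), which hydroxylates lysines of the telopeptides and so directs the crosslinks typical of fibrosis, had 7.56 and 6.32 FPKM in MI and 3.52 and 4.46 FPKM in Sham. The groups did not overlap, and the log2 difference was 0.58 ± 0.14 (edgeR unadjusted p = 0.0098, adjusted p = 0.33). Plod3 (chromosome 5, 136987019 to 136996648), which also carries glycosyltransferase activity, had 9.59 and 7.11 FPKM in MI and 4.96 and 4.91 FPKM in Sham. Its groups were apart too, with a log2 difference of 0.53 ± 0.16 (edgeR unadjusted p = 0.022, adjusted p = 0.35).

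The mix of lysyl hydroxylases was much alike in the 2 groups. Plod1 made up 54.9% and 51.3% of their summed FPKM in MI and 56.3% and 52.9% in Sham. Plod2 made up 19.9% and 22.9% in MI and 18.1% and 22.4% in Sham, and the groups overlapped (exact permutation p = 0.67, 2-sided, n = 2 each). The family as a whole summed to 38.0 and 27.6 FPKM in MI and 19.4 and 19.9 FPKM in Sham. Plod3 overlaps the opposite-strand gene Znhit1 (1255 and 1497 counts in MI, 1234 and 1102 in Sham), and Plod2 an opposite-strand gene of at most 85 counts. Whether the counting used strand is not given in the sources used here, so a few of these reads may belong to the partner.

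The prolyl 3-hydroxylases differed from each other. P3h1 (chromosome 4, 119232915 to 119248975) works in a complex with Crtap and Ppib on few prolines of fibrillar collagen. It had 5.54 and 3.73 FPKM in MI and 3.05 and 3.68 FPKM in Sham. MI replicate 2 and Sham replicate 2 were nearly equal, in reversed order on the TMM scale (15.4 against 15.8 CPM), and the log2 difference was 0.23 ± 0.19 (edgeR adjusted p = 0.68) and 0.03 without MI replicate 1. P3h3 (chromosome 6, 124841089 to 124857752), which associates with Plod1 and P3h4, had 6.60 and 4.61 FPKM in MI and 1.46 and 3.17 FPKM in Sham. The groups did not overlap, but the Sham libraries differed from each other, and the log2 difference of 1.06 ± 0.36 (edgeR unadjusted p = 0.033, adjusted p = 0.39) was 0.66 without Sham replicate 1 and 1.63 without Sham replicate 2. P3h3 made up 54.4% and 55.3% of the P3h1 and P3h3 FPKM in MI and 32.4% and 46.3% in Sham. The P3h1 partners Crtap and Ppib had log2 differences of 0.46 ± 0.22 and 0.11 ± 0.12, which did not pass. P3h4, added after its values were seen, had 6.84 and 6.72 FPKM in MI and 6.89 and 7.29 FPKM in Sham. Its log2 difference of -0.28 ± 0.15 did not pass (edgeR adjusted p = 0.52).

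Colgalt1 (chromosome 8, 71610998 to 71624911) adds galactose to hydroxylysine. It had 13.6 and 9.93 FPKM in MI and 3.87 and 6.98 FPKM in Sham. Both MI libraries were above both Sham libraries, and the lower Sham library was again replicate 1, as for P3h3. The log2 difference was 0.90 ± 0.27 (edgeR unadjusted p = 0.022, adjusted p = 0.35), and it was 0.60 without Sham replicate 1. Its 3' end meets the opposite-strand gene Unc13a, which had 308 and 292 counts in MI against 138 and 130 in Sham, compared with 4683 and 3565 in MI against 1322 and 2192 in Sham for Colgalt1 itself.

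Serpinh1 (ENSMUSG00000070436, chromosome 7, 99345376 to 99353239), the collagen chaperone, was the most abundant of the 10 genes. It had 107 and 77.8 FPKM in MI and 51.1 and 18.1 FPKM in Sham. The groups did not overlap, but the Sham libraries differed 3.12-fold on the TMM scale, the widest gap between replicates of a group among the 9 genes detected in all libraries. The log2 difference of 1.15 ± 0.54 did not pass (edgeR unadjusted p = 0.090, adjusted p = 0.49). It was 2.19 without Sham replicate 1 and 0.55 without Sham replicate 2, so its size rests on which Sham library is used. In the same Sham pair, the endoplasmic reticulum chaperones Hspa5 and Hsp90b1 had 175 and 128 FPKM in replicate 1 and 83.1 and 59.3 FPKM in replicate 2.

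**Figure D3:**
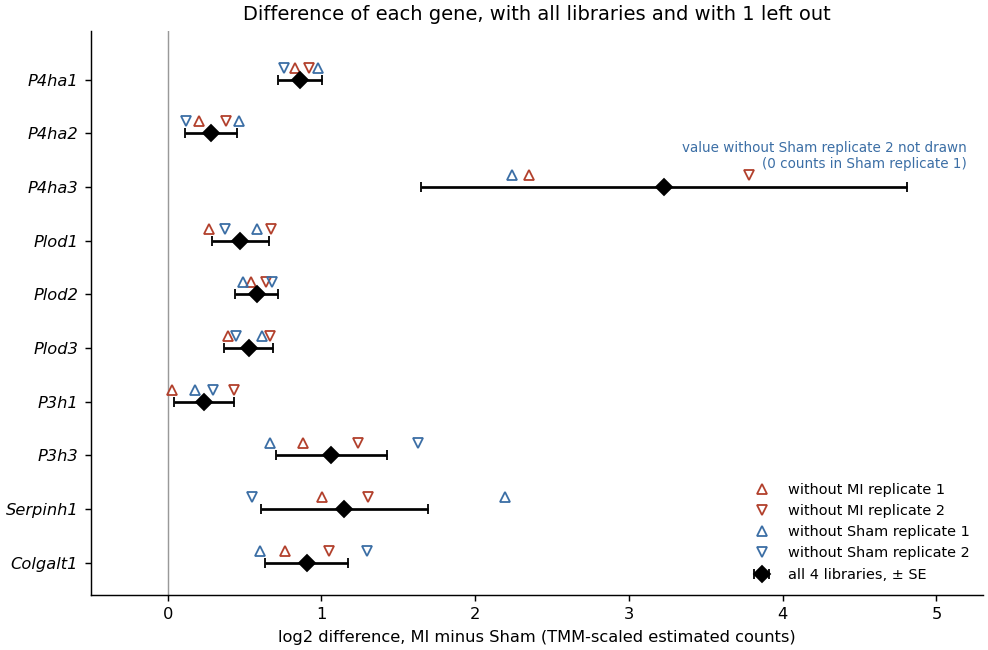
Log2 difference (MI minus Sham) of each gene with all 4 libraries, as a diamond with its standard error, and without 1 library at a time, as open triangles (for P4ha3 the fit without Sham replicate 2 is not drawn, since Sham replicate 1 is at 0 counts). The differences lie above 0 for all 10 genes in each of these fits, beside 50.2% of all genes tested with all 4 libraries. The differences of P4ha1 stay between 0.75 and 0.98, and those of Serpinh1 run from 0.55 to 2.19.

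By level, Serpinh1 was followed by Plod1, with the other genes between 0.61 and 13.6 FPKM in MI and between 0 and 6.98 FPKM in Sham. On the log2 CPM scale the profiles of Plod1 and Plod3 over the 4 libraries were the closest pair among the 10 (Euclidean distance of centred values 0.11), followed by P4ha2 with Plod1 (0.25) and P3h3 with Colgalt1 (0.27). Among 4480 genes with a mean of at least 5 FPKM, those with a profile closest to Serpinh1 were Rn7s2, Fgd5, Mxd4, Lox and Gm10705, at distances of 0.25 to 0.54 over 4 libraries. Of these, Lox, at rank 4 by distance (0.51), encodes a lysyl oxidase that crosslinks collagen outside the cell. It had 11.2 and 6.51 FPKM in MI and 3.33 and 1.72 FPKM in Sham.

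Fibrillar procollagen genes (11 listed, 10 tested) summed to 326 and 147 FPKM in MI against 34.5 and 51.8 FPKM in Sham. Of the 10 tested, 8 were higher at an unadjusted p under 0.05, beside 7.12% of all genes, with a median log2 difference of 2.18. A test of these genes against the enzymes was not run. Col1a1, a chain of type I collagen, had 87.9 and 32.0 FPKM in MI and 8.22 and 12.1 FPKM in Sham, and Col3a1, type III collagen, had 139 and 66.8 FPKM in MI and 13.3 and 21.1 FPKM in Sham. The 9 genes other than Serpinh1 stood at 266 and 434 FPKM per 1000 FPKM of fibrillar procollagen in MI and at 1137 and 856 in Sham. P4ha1 alone stood at 35.7 and 66.6 in MI and at 150 and 95.0 in Sham. By this measure 8 of the 10 genes were lower in both MI libraries than in both Sham libraries, as were 89.2% of all genes tested with a procollagen sum that was itself higher in MI, so the count is no result about the 10 genes. P4ha3 and Serpinh1 overlapped, Serpinh1 with 328 and 530 in MI and 1481 and 350 in Sham. The exact permutation p of these ratios was 0.33 or larger (2-sided, 2 against 2), as for all 41 ratios tested.

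**Figure D4:**
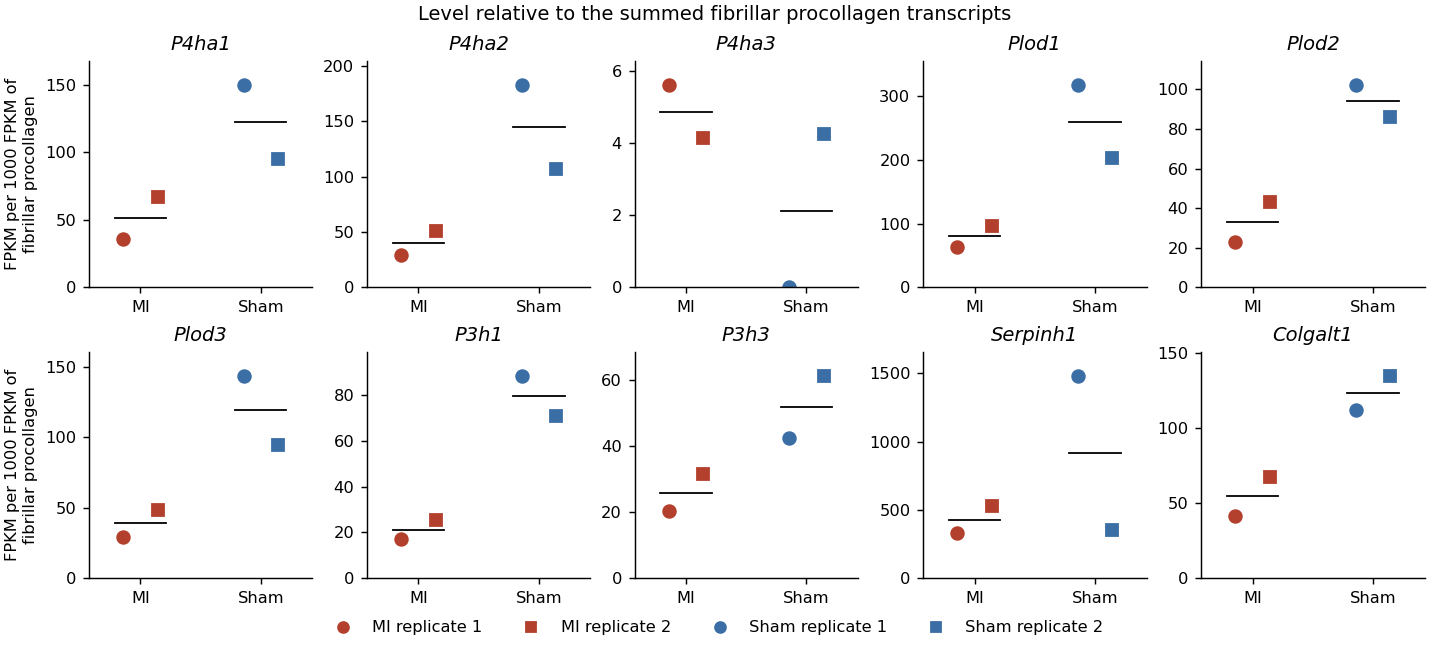
Level of each gene per 1000 FPKM of summed fibrillar procollagen transcripts, by library, with group means as lines and axes from 0. Both MI points lie below both Sham points for 8 of the 10 genes, as for 89.2% of all genes, and the groups overlap for P4ha3 and Serpinh1.

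Fibroblast markers were uneven. The 9 markers summed to 505 and 505 FPKM in MI and to 272 and 434 FPKM in Sham. Gsn, an actin-severing protein gene and the most abundant of them, had 247 and 289 FPKM in MI and 176 and 284 FPKM in Sham, with a log2 difference of 0.02. Gsn was a large part of the sum in every library, so ratios to this sum depend on it. Ratios to a sum without Gsn were not tested. Of the 9, 3 were higher at an unadjusted p under 0.05, beside 7.12% of all genes (Dcn, Lum and Col15a1, with log2 differences of 0.65, 1.47 and 1.21). Per 1000 FPKM of these markers P4ha1 stood at 23.1 and 19.4 in MI and at 18.9 and 11.3 in Sham, Colgalt1 at 26.9 and 19.7 in MI and at 14.2 and 16.1 in Sham, and P3h3 at 13.1 and 9.12 in MI and at 5.36 and 7.31 in Sham. With P4ha3 these were the 4 genes of the 10 that were apart and higher in MI on this measure, as were 8.45% of all genes tested, whereas the groups overlapped for the lysyl hydroxylases, P4ha2, P3h1 and Serpinh1. Plod3, for example, stood at 19.0 and 14.1 in MI and at 18.2 and 11.3 in Sham. In whole tissue, more cells of a type and more RNA per cell cannot be told apart, and the part of fibroblast number in the differences was not tested.

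Other cell types were measured beside them, where 7.12% of all genes were higher and 4.51% lower at an unadjusted p under 0.05. A count of 1 in such a short list is no result about the list. Of 8 myofibroblast markers 4 were higher at an unadjusted p under 0.05 (Postn, Meox1, Ltbp2 and Cthrc1), with a median log2 difference of 1.25. Of the 8, 6 had a positive difference. Acta2 had 0.13 ± 0.38, while Tagln and Lrrc15 lay below 0, at -0.08 ± 0.54 and -0.31 ± 0.18. Endothelial markers (3 of 7 higher, Egfl7, Tie1 and Kdr), smooth muscle and pericyte markers (2 of 6, Pdgfrb and Cspg4) and macrophage markers (0 of 8) had medians of 0.39, 0.39 and 0.44. In these lists 5 of 7, 4 of 6 and 7 of 8 differences were positive. Those below 0 were Vwf and Emcn (-0.01 and -0.25), the smooth muscle genes Myh11 and Cnn1 (-0.34 and -0.37) and Mrc1 (-0.19). Cartilage markers (4 of 6 tested, 2 higher, Acan and Sox9) summed to 41.2 and 23.3 FPKM in MI and to 0.18 and 4.44 FPKM in Sham, mostly Comp. Skeletal muscle markers (4 of 7 tested) had 0 genes past an unadjusted p of 0.05 in edgeR, and the 3 too rare to test, Myh4, Myh1 and Myh2, named after their values were seen, had 267, 298 and 93 counts in MI replicate 1 and at most 4 counts in any other library. Of 9 cardiomyocyte markers 1 was lower, Tnni3. Of 6 atrial markers 4 were lower, through Sham replicate 2 (Myl4, Myl7, Sln and Bmp10). The part of these cells in the enzyme differences was not tested.

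The rest of the collagen production line was uneven. Its counts stand beside 7.12% of all genes higher and 4.51% lower at an unadjusted p under 0.05. Among 9 partner subunits and other modifying enzymes 2 were higher at an unadjusted p under 0.05, the prolyl 3-hydroxylase P3h2 (2.73 and 2.35 FPKM in MI, 0.88 and 0.95 in Sham) and the galactosyltransferase Colgalt2 (2.05 and 1.91 in MI, 0.97 and 1.18 in Sham), and the median was 0.09. Lysyl oxidases, which crosslink the secreted fibre, had 4 of 5 higher (Lox, Loxl1, Loxl2 and Loxl3) and a median of 1.33. Procollagen trimming genes had 3 of 8 higher, the proteinases Bmp1 and Adamts2 and the enhancer Pcolce, and a median of 0.41. Procollagen export genes had 0 of 11 in either direction and a median of -0.11, with Sar1b, a GTPase of the export vesicle coat, at 36.2 and 36.0 FPKM in MI and 41.0 and 38.7 in Sham. Endoplasmic reticulum folding helpers had 0 of 12 and a median of -0.36, and 11 of the 12 were highest in Sham replicate 1. The share of all genes highest in Sham replicate 1 was not counted. Basement membrane collagens had 1 of 6 higher (Col4a2, 104 and 79.9 FPKM in MI, 55.7 and 51.1 in Sham) and a median of 0.43.

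Hydroxylases that act on other proteins, the oxygen sensors Egln1, Egln2 and Egln3 among them, had 0 of 7 past an unadjusted p of 0.05 and a median log2 difference of -0.16. At this threshold 7.12% of all genes were higher and 4.51% lower. Proline supply genes had 2 of 6 higher, Aldh18a1 (3.24 and 2.52 FPKM in MI, 1.28 and 1.56 in Sham) and the little expressed Pycr1, and a median of 0.25. Ascorbate and iron supply genes had 0 higher and 2 of 7 lower (the metal transporters Slc39a14 and Slc11a2, with log2 differences of -0.66 and -0.43) and a median of -0.43. Hypoxia response genes had 1 of 12 higher, near the share of all genes, so the count is no result about the list. This was Ankrd37 (4.79 and 5.40 FPKM in MI, 1.34 and 0.39 in Sham). Their median was 0.18, with the glycolytic genes Aldoa, Pgk1 and Ldha at -0.16, -0.14 and 0.10. Heat shock genes had 0 of 9 and a median of 0.08. No gene of these lists was called after adjustment in edgeR, whereas DESeq2 called 8 fibrillar procollagens, 4 lysyl oxidases, 2 trimming genes, 1 partner enzyme (P3h2) and 1 hypoxia gene (Ankrd37) higher at an adjusted p under 0.05. Among the cell type lists DESeq2 called 2 fibroblast (Dcn and Lum), 3 myofibroblast (Postn, Meox1 and Ltbp2), 1 endothelial (Egfl7) and 1 cartilage marker (Acan) higher and 2 atrial markers (Myl4 and Myl7) lower. Over all 18475 genes tested DESeq2 called 403 higher (2.18%) and 232 lower.

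**Figure D5:**
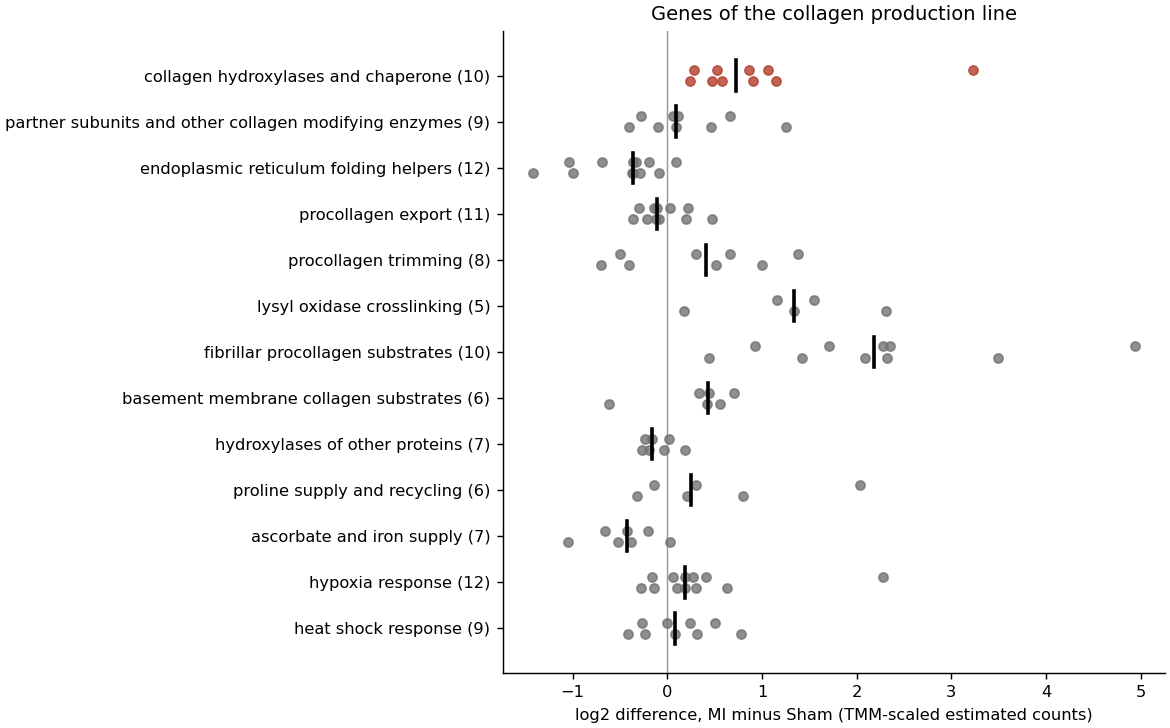
Log2 difference (MI minus Sham) of every tested gene of each list, with the number tested in parentheses, and the list median as a black bar. The hydroxylases and chaperone, in red, have a median of 0.72, between the fibrillar procollagens (2.18) and lysyl oxidases (1.33) on one side and the procollagen export genes (-0.11) and folding helpers (-0.36) on the other.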

How the data were processed

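Poly(A) RNA of 4 mouse heart libraries was sequenced in pairs after strand marking with dUTP, per the labels' protocols. The deposited table holds an estimated count per gene and library, per the file headers, beside FPKM values, in which the authors corrected for transcript length and depth. The submitters' processing notes name HISAT2 2.0.4, StringTie 1.3.4d, cutadapt 1.9 and also UMI-tools, without roles. The genome build is not given in the sources used here, and 99.5% of gene identifiers occur in GENCODE M21 (GRCm38), with the same coordinates for 9 of the 10 genes. Low counts pile up at 4 (1148 to 1174 genes at 4, 284 to 331 at 3, 185 to 195 at 5). Larger multiples of 4 were not tabulated. About 4 counts were therefore taken as 1 fragment, and 12 counts as 3 fragments, which is an inference.

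Genes were kept by filterByExpr at a min.count of 10 and a min.total.count of 15, and counts were scaled by TMM and tested with edgeR 4.0.16 in R 4.3.3 (quasi-likelihood, group only, 2-sided, Benjamini-Hochberg over all 18475 genes). The fit was checked on simulated data. Alternatives were DESeq2 1.42.0, its size factors, and removal of mitochondrial transcripts with scaling to the library total in place of TMM. Others were no filter, limma 3.58.1 on log2(FPKM + 1) and log2(FPKM + 0.1) with a mean FPKM of at least 0.5, and counts divided by 4. A replicate block and each library left out completed them. The 10 genes and the gene lists were chosen with earlier results of these data known. Genes named besides the 10 are the most abundant of a list (up to 3), members at an unadjusted p under 0.05 where at most 4, and the 5 profiles closest to Serpinh1. A few others, such as P3h4 and the rare skeletal muscle markers, were added after their values were seen.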

Additional observations from a re-analysis of the deposited data

How the results depend on the processing

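All 120 values of the 10 genes under the 12 alternatives were positive. They are refits of the same libraries and not separate support. In the main fit 50.2% of all genes tested had a positive difference. The median log2 difference of the 10 genes, 0.72, was 0.86 with mitochondrial transcripts removed and scaling to the library total in place of TMM. It was 0.81 in limma on log2(FPKM + 1) and 0.93 with a pseudocount of 0.1. In these settings the median of all genes moved to 0.14, 0.15 and 0.20. With 1 library left out the median of the 10 genes was 0.61 to 0.79. Genes of the 10 higher at an unadjusted p under 0.05 numbered 9 in both limma fits, where 14.2% and 14.3% of all genes were higher, and 1 to 8 with 1 library left out, where 2.23% to 9.72% were. DESeq2 called 1 of the 10 and 635 of all genes, and 0 to 14 of all genes were called with 1 library left out, 14 without Sham replicate 1 and 5 without Sham replicate 2. A group left with 1 library was taken to vary like the other group. Nothing in the labels says that the replicate numbers pair animals, so the main fit did not pair the libraries. Deviations of same-numbered libraries from their group means had a correlation of -0.06 across genes. With 2 libraries per group this value cannot decide whether they are paired. With the replicate block 7 of the 10 genes had an unadjusted p under 0.05, where 5.42% of all genes were higher, and 0 genes were called. The cause of these changes was not tested, and with 2 libraries per group the power is small.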

Other observations

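The Sham libraries differed from each other in a way that touched Serpinh1, P3h3 and Colgalt1 most among the 9 genes detected in all libraries. Sham replicate 1 had 3.12 times the Serpinh1 of Sham replicate 2 on the TMM scale, and 0.51 and 0.62 times the P3h3 and Colgalt1. Of 9 heat shock genes 6 were higher in Sham replicate 1 than in Sham replicate 2 in FPKM. The share of all genes with this order was not counted, so the count is no result about the heat shock genes. The 12 endoplasmic reticulum folding helpers summed to 387 and 412 FPKM in MI replicates 1 and 2, against 649 FPKM in Sham replicate 1 and 344 FPKM in Sham replicate 2. Whether these values have a shared origin was not tested.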
